A study of Mus musculus with 24 samples.

Results

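The expression of 41 nuclear genes that shape, renew and police mitochondria was followed in blood stem and progenitor cells of aged and young mice. The genes were taken by name from a list of fusion, fission, mitophagy, biogenesis, protease, chaperone, antioxidant and outer membrane channel genes, and they are 41 of the 24421 rows of the deposited count table. Aged groups came from 4 male C57BL/6 mice of 107 weeks and young groups from 4 male C57BL/6 mice of 12 weeks, and no treatment or transgene is given for either. Bone marrow was enriched for CD117 (Kit), and cells that lacked lineage markers but carried Sca1 and Kit were sorted into 3 populations. The gate for long-term hematopoietic stem cells (LT-HSC) was CD150 positive without CD48, that for short-term stem cells (ST-HSC) lacked both, and that for multipotent progenitors (MPP) was CD48 positive without CD150. Each of the 6 groups had 4 bulk RNA-seq libraries, 24 in all. The labels count 4 mice per age, so the libraries of a group were taken as separate mice, although no label ties a library number to a mouse. The 3 populations of an age then share these mice, and the main comparisons between populations did not use that pairing.

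Mitochondria fuse and divide continually. Fusion mixes the contents of the network, and fission frees damaged pieces for removal by mitophagy. Almost all mitochondrial proteins are made in the cytosol and imported, so nuclear transcription factors and coactivators set the supply, while chaperones fold the imported proteins and proteases degrade those that fail. Long-term stem cells are known as largely quiescent cells that rely on mitophagy to keep their mitochondria fit, and multipotent progenitors as cells with more active oxidative metabolism.

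Counts per library ran from 7307151 to 12946550. Levels are given in CPM, read counts scaled to library size with trimmed-mean (TMM) factors, and differences as log2 values of the first group named minus the second ± standard error. Adjusted p-values are those of the quasi-likelihood test of edgeR, adjusted by Benjamini-Hochberg over 14205 genes and called at 0.05. Of the sort genes, Slamf1 followed the gates between populations, and Cd48 did so only in part. Slamf1, which encodes CD150, averaged 72.1 CPM in aged LT-HSC, against 26.2 CPM in young LT-HSC, and under 1 CPM in the other groups. Cd48 averaged 90.2 CPM in aged and 66.4 CPM in young MPP but 0.178 CPM in aged LT-HSC, against 1.25 CPM in young LT-HSC. Although the LT-HSC and ST-HSC gates both lack CD48, Cd48 was lower in LT-HSC than in ST-HSC. The difference was -6.26 in aged (adjusted p = 1.8e-08) and -3.16 in young mice (8.3e-06). ST-HSC were below MPP by -2.64 in aged (1.8e-06) and -2.53 in young mice (8.6e-06). Slamf1 and Cd48 were both called between the ages in LT-HSC (1.46, adjusted p = 0.011, and -2.77, 0.017). Ly6a, which encodes Sca1, was higher in aged than in young MPP (1.36, adjusted p = 0.0071). It was also higher in young LT-HSC (0.95, 0.019) and young ST-HSC (1.01, 0.024) than in young MPP. Kit was higher in LT-HSC and ST-HSC than in MPP at both ages (0.38 to 0.70). Some libraries stood apart. The myeloid granule gene Mpo was at 682 CPM in young LT-HSC library 1 and at most 3.86 CPM in the other LT-HSC libraries, and it ranged from 105 to 2287 CPM over the aged ST-HSC libraries. The 9 B and plasma cell markers summed to between 0.182% and 0.875% of counts in aged MPP, with none at 0, against 0.00564% to 0.0359% in young MPP and at most 0.0367% in any library of the other 4 groups. The 8 erythroblast markers summed to between 0.0013% (aged MPP library 1) and 0.0542% (aged ST-HSC library 2) of counts. The 4 hemoglobin genes among them were at 0 in every group, and how their reads were counted was not tested.

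All 41 genes passed the filter on low counts. Per kilobase of exon, the level averaged over the 6 groups was highest for Prdx3, the mitochondrial peroxiredoxin (81.7 CPM per kb), followed by the outer membrane channel Vdac1 (54.2), the mitophagy kinase Pink1 (39.2) and Hspa9, the matrix chaperone mortalin (38.8). It was lowest for the biogenesis coactivator Ppargc1a (0.853 CPM per kb), the stress transcription factor Atf5 (2.19) and the channel Vdac3 (3.14). Most genes varied little. The highest group mean was 1.1 times the lowest for the superoxide dismutase Sod2 and 1.14 times for the inner membrane fusion GTPase Opa1, against 5.33 times for Ppargc1a, 2.5 for Atf5, 2.23 for the co-chaperonin Hspe1 and 1.91 for the prohibitin Phb2. The highest of the 6 group means fell in aged MPP for 16 genes, and the lowest fell in aged LT-HSC for 15. Summed over the 41 genes the level was 2286 ± 72.0 CPM in aged LT-HSC, against 2333 ± 88.5 CPM in young LT-HSC, 2399 ± 117 and 2378 ± 31.5 CPM in aged and young ST-HSC, and 2625 ± 83.8 and 2526 ± 95.6 CPM in aged and young MPP (SD, n = 4 each).

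Promoters of 4 genes on which the results turn are shown, 3 of genes that were lower in LT-HSC than in MPP at both ages (Hspe1, Phb2, Vdac1) and 1 of a gene that was higher in LT-HSC than in MPP in young mice but did not pass in aged mice (Pink1). Each is the 250 bases before the RefSeq start of transcription in GRCm38.p6, written 5′ to 3′ on the gene's own strand. Hspe1 lies at chr1:55087898-55088147 (plus strand), Phb2 at chr6:124712039-124712288 (plus), Vdac1 at chr11:52360601-52360850 (plus) and Pink1 at chr4:138326297-138326546 (minus). Capitals mark motif matches. In Hspe1 the first run of capitals holds 2 overlapping heat shock matches and an ETS match read on both strands, and the second a match of the estrogen-related receptor motif. In Phb2 and Vdac1 capitals mark ETS matches, and in Pink1 an NRF1 match.
Hspe1: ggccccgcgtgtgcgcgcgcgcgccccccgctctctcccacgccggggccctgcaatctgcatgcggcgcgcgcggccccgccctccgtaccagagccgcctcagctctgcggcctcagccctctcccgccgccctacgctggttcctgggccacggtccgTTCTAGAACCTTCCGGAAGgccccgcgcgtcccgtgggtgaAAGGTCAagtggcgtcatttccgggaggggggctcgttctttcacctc
Phb2: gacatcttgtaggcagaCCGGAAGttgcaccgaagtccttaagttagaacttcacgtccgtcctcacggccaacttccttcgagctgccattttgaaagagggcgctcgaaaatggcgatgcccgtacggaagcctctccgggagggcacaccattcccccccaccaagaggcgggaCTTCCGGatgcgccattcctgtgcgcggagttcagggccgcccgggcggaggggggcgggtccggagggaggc
Vdac1: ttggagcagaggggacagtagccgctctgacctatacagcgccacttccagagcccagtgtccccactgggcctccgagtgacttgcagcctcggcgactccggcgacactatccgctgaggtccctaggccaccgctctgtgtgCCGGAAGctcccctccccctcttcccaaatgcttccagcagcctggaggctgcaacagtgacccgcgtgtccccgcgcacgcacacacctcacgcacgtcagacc
Pink1: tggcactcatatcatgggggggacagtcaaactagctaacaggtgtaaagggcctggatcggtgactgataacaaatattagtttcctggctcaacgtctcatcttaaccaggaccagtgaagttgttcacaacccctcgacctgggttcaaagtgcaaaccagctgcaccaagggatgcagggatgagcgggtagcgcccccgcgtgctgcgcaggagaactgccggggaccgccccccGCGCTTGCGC

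The motifs were searched on both strands of the 300 bases from 250 before to 50 after each RefSeq start, and 34 of the 41 genes had a promoter in that table. The ETS motif CCGGAAG, of the type bound by the respiratory chain regulator GABP, was held by 15 of the 34 (44.1%) and by 9.93% of all 27025 genes with a promoter. The motif of NRF1, the letters GCGC, NT and GCGC in a row, was held by 7 (20.6%, against 5.19% of all genes), among them Hspd1, Opa1, Phb and Spg7. The heat shock motif, the blocks GAA, TTC and GAA with NN between each, was held by 2, Hspd1 and Hspe1, whose head-to-head promoters overlap and share the matched bases (5.88%, against 0.662%). The estrogen-related receptor motif AAGGTCA was held by 4 (11.8%, against 5.38%), the E-box CACGTG by 4 (11.8%, against 8.09%), CCAAT by 16 (47.1%, against 41.1%) and the stress motif TTGCATCA by 0 (against 1.03%). Median GC content was 61.0% in the promoters of these genes and 52.7% in all promoters, and its part in these shares was not tested. A match describes letters in a window and shows no binding.

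**Figure D1:**
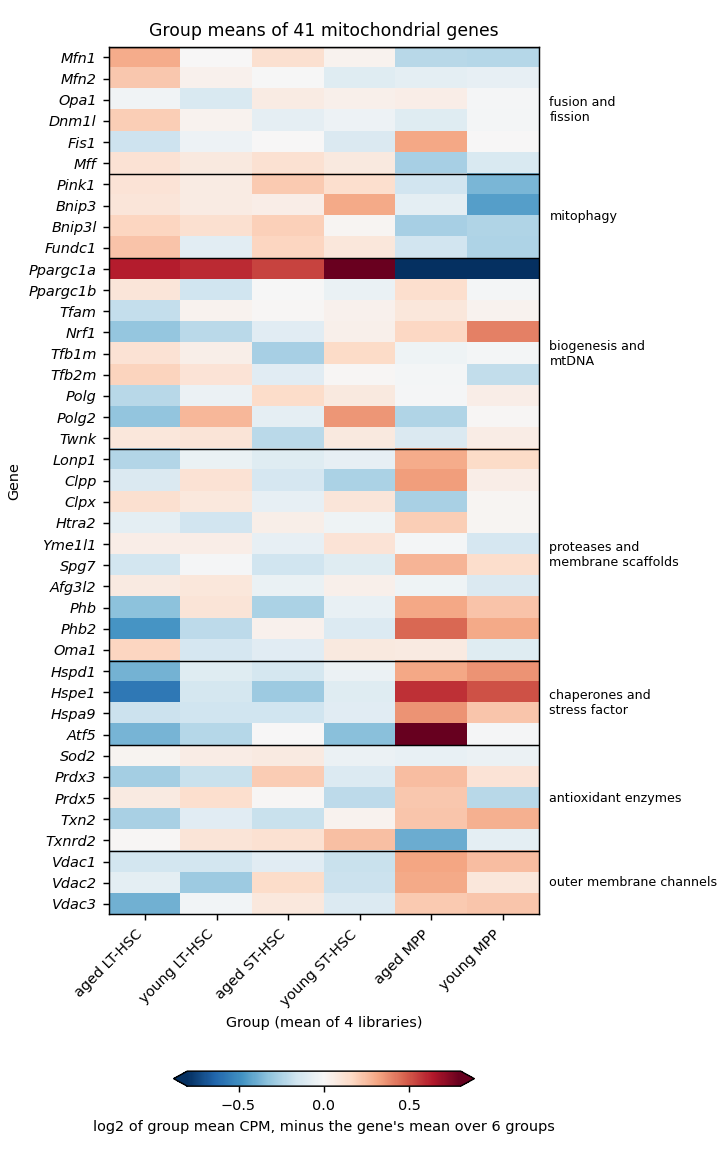
Each row is 1 gene, grouped by role, and each column is a group (aged left of young within LT-HSC, ST-HSC and MPP). Colour is the log2 of the group's mean CPM minus the gene's mean of these values over the 6 groups. It saturates at the ends of the scale, which Ppargc1a and, in aged MPP, Atf5 exceed. Chaperones, prohibitins and channels are mostly lower in LT-HSC and ST-HSC than in MPP, and Bnip3l and Pink1 run the other way.

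More of the 41 genes were called between populations than between ages, except between young LT-HSC and young ST-HSC, where 0 passed. All genes tested also gave mostly more calls between populations (12.5% to 56.8%) than between ages (5.79% to 18.9%). Compared with aged MPP, aged LT-HSC had less mRNA of the mitochondrial chaperones, the prohibitins, the 3 voltage-dependent anion channels, several proteases and the antioxidants Prdx3 and Txn2. They had more of Ppargc1a, the mitophagy receptor Bnip3l and the fusion and fission GTPases Mfn1, Mfn2 and Dnm1l. Of the 41 genes, 8 were higher and 18 lower in aged LT-HSC than in aged MPP and 15 did not pass. Over all genes tested 56.8% were called in that comparison, 28.3% higher and 28.5% lower, so the share of the 41 that was called is read against a high background. In bulk samples fewer cells of a type and less RNA per cell cannot be told apart. B and plasma cell markers moved with this comparison, at 0.0019% to 0.00332% of counts in aged LT-HSC with Ms4a1, Ebf1 and Pax5 at 0, against 0.182% to 0.875% in aged MPP. Markers of monocytes and macrophages (0.00258% to 0.00368% in aged LT-HSC with Ccr2 at 0, against 0.0147% to 0.0493% in aged MPP) moved with it too. So did those of mast cells, basophils and eosinophils (0.000133% to 0.000404% in aged LT-HSC with Mcpt8, Prss34 and Fcer1a at 0, against 0.00865% to 0.0507% in aged MPP). Endothelial and stromal markers were also lower in aged LT-HSC (0.0125% to 0.0154%, against 0.0182% to 0.0265%). Megakaryocyte markers were higher there (0.0159% to 0.0293% with Gp6 at 0, against 0.00818% to 0.0123%). The 45S ribosomal RNA gene took 5.64% to 6.95% of counts in aged LT-HSC, against 8.06% to 9.92% in aged MPP, and the part of these in the comparison was not tested.

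All 4 genes of the chaperone role were lower in aged LT-HSC than in aged MPP, as were 28.5% of all genes. Hspe1, the co-chaperonin that caps the HSP60 barrel (chromosome 1, 55088132 to 55091307, GRCm38), was at 10.8, 15.4, 17.2 and 12.9 CPM in aged LT-HSC libraries 1 to 4, against 29.6, 30.5, 28.7 and 36.7 CPM in aged MPP. Its partner Hspd1, the HSP60 chaperonin itself (chromosome 1, 55077835 to 55088243), was at 37.0, 40.7, 35.3 and 39.1 CPM in aged LT-HSC, against 58.9, 57.3, 65.6 and 63.2 CPM in aged MPP. Hspa9, which pulls imported proteins into the matrix, was at 146, 145, 153 and 144 CPM in aged LT-HSC, against 201, 195, 223 and 227 CPM in aged MPP. For all 3 genes every aged LT-HSC library lay below every aged MPP library. The log2 differences were -1.15 ± 0.18 for Hspe1 (adjusted p = 4.2e-06), -0.69 ± 0.11 for Hspd1 (6.2e-06) and -0.53 ± 0.09 for Hspa9 (1e-05). Atf5, a transcription factor of the mitochondrial unfolded protein response, was also lower (-1.32 ± 0.33, adjusted p = 0.0015) and averaged 3.18 ± 0.716 CPM in aged LT-HSC and 7.94 ± 2.29 CPM in aged MPP (SD, n = 4 each). Hspd1 and Hspe1 overlap by 112 exon bases on opposite strands, and since the library kit does not mark strand, reads there could not be assigned to a gene by their strand. Tfb1m, Polg, Polg2, Twnk, Htra2, Atf5, Prdx5, Txnrd2 and Vdac2 likewise overlap an opposite-strand gene, by 25 to 921 exon bases. Hspd1, Hspe1, Hspa9, Bnip3l and Vdac3 have 1 to 6 annotated copies each, none with a row in the table, and how reads shared with them were counted was not tested.

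The prohibitins form ring complexes in the inner membrane that bind its m-AAA proteases. Phb2 (chromosome 6, 124712336 to 124716950) was at 65.4, 75.0, 71.6 and 68.8 CPM in aged LT-HSC, against 127, 123, 128 and 156 CPM in aged MPP, with no overlap (-0.93 ± 0.12, adjusted p = 2.9e-07). Its partner Phb was lower as well (-0.63 ± 0.18, adjusted p = 0.0048). The prohibitins did not differ in step, and Phb over Phb2, a ratio of CPM, was 0.302 ± 0.0238 in aged LT-HSC and 0.246 ± 0.011 in aged MPP (SD, n = 4 each). Of the proteases, Lonp1 (-0.53) and Clpp (-0.45) of the matrix, Spg7 (-0.42) of the inner membrane and Htra2 (-0.27) of the intermembrane space were lower, whereas Clpx, the unfoldase that feeds Clpp, was higher (0.39). Yme1l1, Afg3l2 and Oma1, inner membrane proteases, did not pass, at 0.07, 0.11 and 0.10.

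The channels Vdac1, Vdac2 and Vdac3 pass metabolites through the outer membrane. Vdac1 (chromosome 11, 52360860 to 52389397) was at 146, 134, 123 and 106 CPM in aged LT-HSC, against 169, 167, 164 and 198 CPM in aged MPP, with no overlap (-0.46 ± 0.10, adjusted p = 3e-04). Vdac2 and Vdac3 differed by -0.38 and -0.60, so all 3 channels were lower in aged LT-HSC. Among antioxidant enzymes Prdx3, which removes peroxide (chromosome 19, 60864051 to 60874556), was at 102, 103, 83.8 and 108 CPM in aged LT-HSC, against 135, 143, 134 and 155 CPM in aged MPP, with no overlap (-0.52 ± 0.11, adjusted p = 0.00019). The mitochondrial thioredoxin Txn2, which recharges Prdx3, was lower (-0.48) and the thioredoxin reductase Txnrd2 was higher (0.41). Sod2, which converts superoxide to peroxide, and the peroxiredoxin Prdx5 did not pass, at 0.08 and -0.14.

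Regulators of biogenesis differed in opposite directions. Nrf1, a transcription factor for respiratory chain and mitochondrial DNA maintenance genes (chromosome 6, 30047988 to 30153458), was at 113, 104, 92.0 and 101 CPM in aged LT-HSC, against 144, 160, 146 and 121 CPM in aged MPP (-0.47 ± 0.09, adjusted p = 0.00012). Ppargc1a, which encodes the coactivator PGC-1 alpha (chromosome 5, 51454250 to 51567726), was at 7.02, 8.13, 8.55 and 5.73 CPM in aged LT-HSC, against 1.88, 2.49, 1.31 and 0.490 CPM in aged MPP (2.24 ± 0.45, adjusted p = 0.00015). The groups did not overlap for either gene, and Ppargc1a rested on 5 to 28 counts per library in aged MPP. The mitochondrial DNA polymerase Polg was lower, at -0.21. The related coactivator Ppargc1b, the mitochondrial DNA packaging factor Tfam, the transcription factors Tfb1m and Tfb2m, the polymerase subunit Polg2 and the helicase Twnk did not pass.

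Of the fusion and fission genes, 4 of 6 were higher and 1 lower in aged LT-HSC than in aged MPP, and of the mitophagy genes 1 of 4 was higher. Over all genes 28.3% were higher and 28.5% lower. Bnip3l, an outer membrane mitophagy receptor (chromosome 14, 66985239 to 67008877), was at 75.7, 79.1, 78.6 and 71.0 CPM in aged LT-HSC, against 57.3, 57.3, 54.2 and 56.0 CPM in aged MPP, with no overlap (0.44 ± 0.09, adjusted p = 0.00012). Pink1, the kinase that marks depolarised mitochondria (chromosome 4, 138313409 to 138326307), had a difference of 0.26 ± 0.12 that did not pass (adjusted p = 0.06, with overlapping values), but passed without aged MPP library 4 (0.30, 0.042), with DESeq2's size factors (0.27, 0.047) and by DESeq2 (0.27, 0.046). The receptor Fundc1 did not pass (0.39, adjusted p = 0.068) but did without aged LT-HSC library 3 (0.46, 0.046) or aged MPP library 4 (0.50, 0.028), and Bnip3 did not pass. The outer membrane fusion GTPases Mfn1 and Mfn2 (0.52 and 0.29), the fission GTPase Dnm1l (0.29) and its receptor Mff (0.38) were higher, and the fission adaptor Fis1 was lower (-0.48). The inner membrane fusion gene Opa1 did not pass (-0.08, 95% interval -0.25 to 0.09).

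Of the 26 calls between aged LT-HSC and aged MPP, 6 depended on single libraries. Mfn2 was not called without aged LT-HSC library 1 or 2 (highest adjusted p over all alternatives 0.086), Clpx without aged LT-HSC library 2 or aged MPP library 1 (0.062), and Polg without aged LT-HSC library 3 or aged MPP library 1 (0.064). Mff was not called without aged LT-HSC library 2 or 3 or aged MPP library 2 or 3 (0.15). Htra2 was not called without aged LT-HSC library 3 or 4 or aged MPP library 1, 2 or 3 (0.14), and Txnrd2 without aged LT-HSC library 2, 3 or 4 or aged MPP library 1, 3 or 4 (0.19). Twnk passed with aged LT-HSC library 3 left out (0.29, adjusted p = 0.017) and Tfam with aged LT-HSC library 2 left out (-0.43, 0.041). The other 20 calls held under each alternative run.

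**Figure D2:**
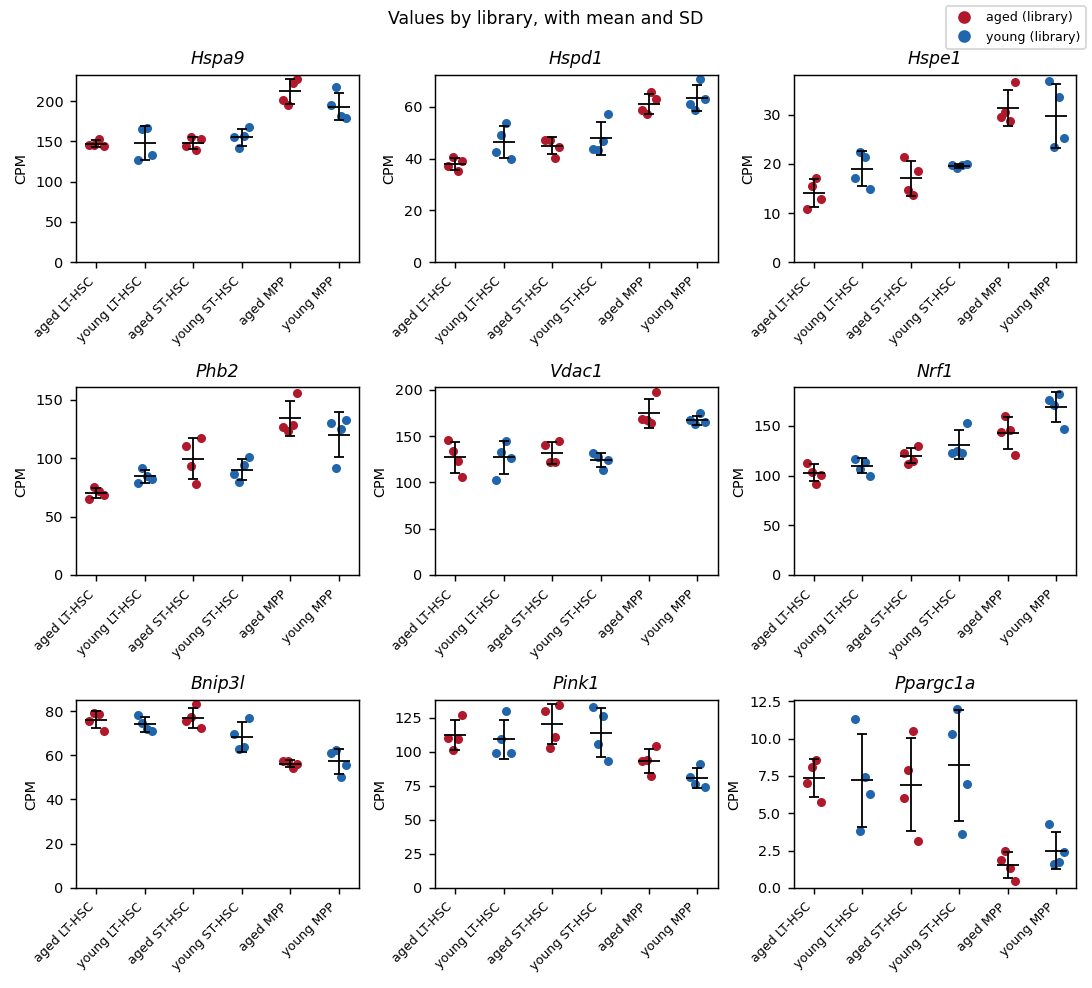
Points are single libraries and the bar and whiskers are the mean ± SD of 4 libraries, in CPM, for 9 genes, with aged left of young in each population. Hspa9, Hspd1, Hspe1, Phb2, Vdac1 and Nrf1 have lower group means in LT-HSC and ST-HSC than in MPP of the same age, and Bnip3l, Pink1 and Ppargc1a have higher ones. Aged and young libraries overlap within each population for the 9 genes, except for Phb2 in LT-HSC.

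In young mice 3 genes were higher and 9 lower in LT-HSC than in MPP, where 37.2% of all genes were called (18.9% higher and 18.3% lower). Nrf1 was at 117, 107, 114 and 100 CPM in young LT-HSC, against 176, 171, 182 and 147 CPM in young MPP (-0.62 ± 0.09, adjusted p = 7e-06). Phb2 was at 78.8, 91.4, 85.0 and 81.9 CPM in young LT-HSC, against 130, 91.5, 125 and 133 CPM in young MPP (-0.51 ± 0.12, adjusted p = 0.0014). Hspa9 was at 127, 165, 167 and 133 CPM in young LT-HSC, against 195, 217, 182 and 179 CPM in young MPP (-0.39 ± 0.09, adjusted p = 0.00092). None of the 3 overlapped between the groups, although for Phb2 young MPP library 2 lay barely above the highest young LT-HSC library. Pink1 was at 99.2, 109, 130 and 99.1 CPM in young LT-HSC, against 81.5, 76.4, 90.7 and 74.3 CPM in young MPP, with no overlap (0.44 ± 0.12, adjusted p = 0.0038). Bnip3l (0.37) and Ppargc1a (1.52) were also higher in young LT-HSC, Ppargc1a with overlapping values. Hspe1 (-0.66), Hspd1 (-0.46), Vdac1 (-0.40), Vdac2 (-0.38), Txn2 (-0.37) and Prdx3 (-0.28) were lower, Txn2 and Prdx3 with overlapping values. Of these 12 calls, that of Prdx3 was lost without young LT-HSC library 1, 2 or 4 or young MPP library 1, 3 or 4, and by DESeq2 (highest adjusted p over all alternatives 0.18), and the rest held. No fusion or fission gene passed in young mice, but Mfn1 did without young LT-HSC library 2 (0.32, adjusted p = 0.046), and Bnip3 passed without young MPP library 1 (0.69, 0.020). B and plasma cell markers took 0.00203% to 0.00255% of counts in young LT-HSC, against 0.00564% to 0.0359% in young MPP. T and NK cell, mast cell, basophil and eosinophil, and endothelial and stromal markers were also lower in every young LT-HSC library. Megakaryocyte markers were higher (0.0122% to 0.0217%, against 0.00599% to 0.00668%). Granulocyte, monocyte and erythroblast shares overlapped. The part of these markers was not tested.

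Of the calls between LT-HSC and MPP, 11 were made at both ages with the same sign, which is 42.3% of the 26 aged and 91.7% of the 12 young calls. Over all genes tested, 57.3% of the aged and 87.4% of the young calls were made at both ages. Whether the difference itself changed with age was tested as the age effect in LT-HSC minus the age effect in MPP, and it passed for 0 of the 41 genes with edgeR and with DESeq2, where edgeR called 9.93% of all genes, 5.05% higher and 4.89% lower. At an unadjusted p under 0.05 there were 6 of the 41 genes, against 3507 of all 14205 genes. All 6 had a more negative LT-HSC minus MPP difference in aged mice. They were Clpp (-0.51), Phb2 (-0.42), Atf5 (-1.11), Prdx5 (-0.50), Fis1 (-0.44) and Lonp1 (-0.33), with a lowest adjusted p of 0.11 over the 41 genes. Without aged LT-HSC library 1 Clpp passed (-0.65, adjusted p = 0.042). Aged mice gave more calls than young mice, but no gene passed the test of a difference between the ages with all libraries.

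**Figure D3:**
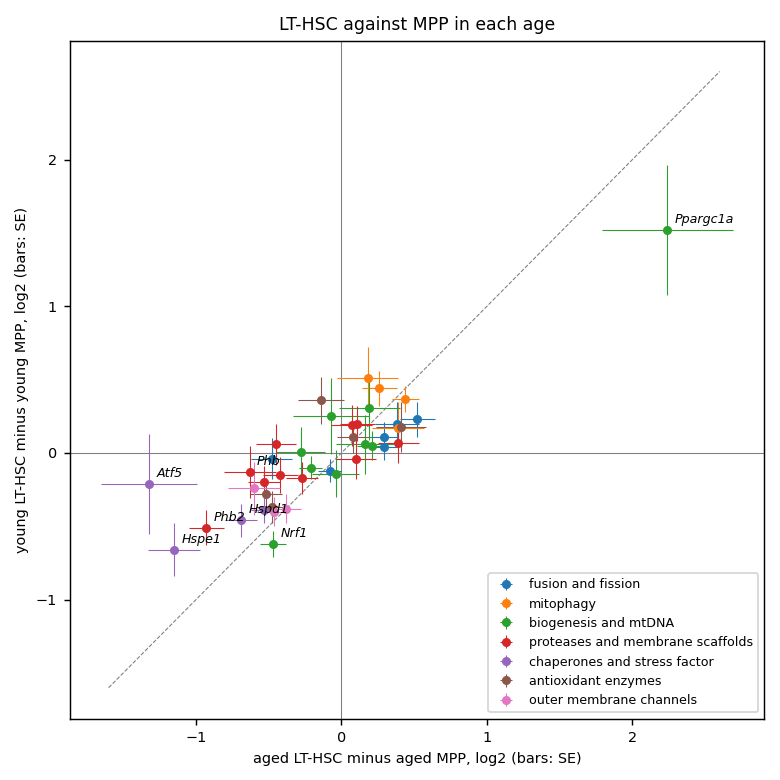
Each point is 1 gene, with the log2 difference of aged LT-HSC minus aged MPP on the horizontal axis, that of young LT-HSC minus young MPP on the vertical axis, and bars of 1 standard error. The dashed line marks equal differences. Ppargc1a lies far to the upper right (2.24 in aged and 1.52 in young mice), and the chaperones, Phb2 and Nrf1 lie at lower left.

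ST-HSC were also compared with MPP, against the MPP libraries already used above. In aged mice 5 genes were higher and 12 lower in ST-HSC, where 29.9% of all genes were called (15.5% higher and 14.4% lower). Hspa9 was at 144, 155, 139 and 153 CPM in aged ST-HSC, below all aged MPP libraries (-0.52 ± 0.09, adjusted p = 6e-05), and Hspe1 was at 21.4, 14.7, 13.7 and 18.5 CPM, also below all of them (-0.87 ± 0.18, adjusted p = 0.00048). Bnip3l was at 75.4, 77.3, 83.2 and 72.3 CPM in aged ST-HSC, above all aged MPP libraries (0.45 ± 0.09, adjusted p = 0.00028). Ppargc1a was higher (2.14), and Hspd1 (-0.45) and Vdac1 (-0.40) were lower. These 6 calls held under each alternative run. The remaining calls were lower for Spg7 (-0.43), Txn2 (-0.40), Phb2 (-0.42), Lonp1 (-0.39), Clpp (-0.47), Phb (-0.55), Atf5 (-0.95) and Nrf1 (-0.25) and higher for Pink1 (0.36), Txnrd2 (0.52) and Mfn1 (0.35). Granulocyte markers made up 0.0118%, 0.146%, 0.0287% and 0.000767% of the counts of the 4 aged ST-HSC libraries, against 0.000672% to 0.0262% in aged MPP. B and plasma cell markers made up 0.00195% to 0.0367% of counts in aged ST-HSC, with Ms4a1 and Pax5 at 0, against 0.182% to 0.875% in aged MPP. Mast cell, basophil and eosinophil markers made up 0.000954% to 0.00216% in aged ST-HSC, with Prss34 and Fcer1a at 0, against 0.00865% to 0.0507% in aged MPP. The part of these cells in the result was not tested. When the 3 libraries that stood apart in earlier results of these data were all removed (aged ST-HSC libraries 2 and 3, young LT-HSC library 1), 8 genes were called in place of 17.

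Single libraries also decided part of these aged calls. Clpp was not called without aged ST-HSC library 3 (highest adjusted p over all alternatives 0.15), Pink1 without aged ST-HSC library 1 or 4 or aged MPP library 3 (0.078), and Phb without aged ST-HSC library 3 or aged MPP library 4 (0.18). Txnrd2 was not called without aged ST-HSC library 1 or 4 or aged MPP library 1 or 4 (0.13), and Mfn1 without aged ST-HSC library 3 or 4 or aged MPP library 1 or 4 (0.096). Atf5 was not called without aged ST-HSC library 1, 2 or 4 or aged MPP library 2 or 4 (0.11), and Nrf1 without library 1, 2 or 3 of either group (0.29). Mff passed without aged ST-HSC library 1 (0.49, adjusted p = 0.015) or aged MPP library 4 (0.48, 0.030), and Fundc1 without aged ST-HSC library 1 (0.47, 0.048).

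In young mice 4 genes were higher and 6 lower in ST-HSC than in MPP, where 20.6% of all genes were called (10.5% higher and 10.1% lower). Of the 4 higher genes, 3 belong to mitophagy. Pink1 was at 133, 106, 126 and 93.2 CPM in young ST-HSC, above all young MPP libraries (0.50 ± 0.12, adjusted p = 0.0027). Bnip3, a hypoxia-induced mitophagy receptor, was at 13.4, 11.1, 11.7 and 11.0 CPM in young ST-HSC, against 9.42, 4.89, 7.06 and 6.75 CPM in young MPP, with no overlap (0.74 ± 0.21, adjusted p = 0.013). Bnip3l (0.25) and Ppargc1a (1.71) were the other higher genes. The lower genes were Vdac1 (-0.43), Nrf1 (-0.37), Hspd1 (-0.41), Hspa9 (-0.31), Phb2 (-0.41) and Hspe1 (-0.60). Values of Nrf1, Phb2 and Ppargc1a overlapped between the groups. The call was lost for Phb2 without young ST-HSC library 2 or young MPP library 4 (highest adjusted p over all alternatives 0.06), for Hspe1 without young MPP library 1 or 3 (0.075), and for Bnip3l without young ST-HSC library 1 or 4 or young MPP library 3 or 4 (0.18). Vdac2 passed without young ST-HSC library 4 (-0.36, adjusted p = 0.018) or young MPP library 3 (-0.33, 0.044), and Txn2 and Clpp without young MPP library 2 (-0.36, 0.020, and -0.41, 0.043). B and plasma cell markers took 0.00192% to 0.00238% of counts in young ST-HSC, against 0.00564% to 0.0359% in young MPP. T and NK cell markers and mast cell, basophil and eosinophil markers were also lower in every young ST-HSC library, and megakaryocyte markers higher. The part of these markers was not tested. Between ST-HSC and MPP 9 genes were called at both ages, all with the same sign, 52.9% of the aged and 90% of the young calls, against 49.8% and 72.2% over all genes. The test of that difference between the ages, the age effect in ST-HSC minus the age effect in MPP, passed for 0 of 41 genes with edgeR and DESeq2 (edgeR called 0.465% of all genes, 0.183% higher and 0.282% lower). Of the 41, 1 gene, Bnip3 (-0.62), had an unadjusted p under 0.05, against 1224 of all 14205 genes.

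LT-HSC were then compared with ST-HSC. In aged mice 2 genes were higher and 3 lower in LT-HSC than in ST-HSC, where 32.3% of all genes were called (16.2% higher and 16.1% lower). Polg was at 87.1, 72.8, 73.2 and 76.7 CPM in aged LT-HSC, against 100, 102, 107 and 92.7 CPM in aged ST-HSC (-0.37 ± 0.08, adjusted p = 0.00049). Prdx3 was at 144, 137, 111 and 159 CPM in aged ST-HSC, above every aged LT-HSC library given above (-0.48 ± 0.11, adjusted p = 0.0011), and Phb2 at 110, 93.3, 77.5 and 117 CPM, likewise (-0.51 ± 0.12, adjusted p = 0.0018). These 3 were lower in aged LT-HSC without overlap and held under each alternative run. Polg overlaps Fanci by 921 exon bases on the opposite strand, and the part of Fanci reads in its counts was not tested. Dnm1l was at 92.3, 97.7, 105 and 94.3 CPM in aged LT-HSC, against 73.0, 85.6, 78.9 and 86.1 CPM in aged ST-HSC (0.27 ± 0.09, adjusted p = 0.021), and Twnk differed by 0.30 with overlapping values. The call of Dnm1l was lost without aged LT-HSC library 2 or 3 or aged ST-HSC library 1 or 3 (highest adjusted p over all alternatives 0.091) and that of Twnk without aged LT-HSC library 1 or 2 or aged ST-HSC library 3 or 4 (0.14). Other genes passed with 1 library left out. They were Vdac3 without aged ST-HSC library 2 (-0.61, adjusted p = 0.015) or aged LT-HSC library 4 (-0.62, 0.017), Nrf1 without aged LT-HSC library 1 (-0.28, 0.036), Lonp1 without aged ST-HSC library 2 (-0.27, 0.046), and Oma1 and Vdac2 without aged ST-HSC library 3 (0.37, 0.049, and -0.29, 0.039).

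In young mice 0 of 41 genes passed between LT-HSC and ST-HSC with edgeR and with DESeq2, where edgeR called 12.5% of all genes (6.79% higher and 5.74% lower). Of the 41, 3 had an unadjusted p under 0.05, against 3264 of all 14205 genes. The log2 differences of the 41 genes ran from -0.26 to 0.37, and their 95% intervals reached from -1.04 to 0.81.

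Aged cells were compared with young cells in each population. In LT-HSC 0 of the 41 genes passed, where 18.9% of all genes were called (9.98% higher and 8.87% lower), and DESeq2 also called 0. The median log2 change of the 41 was -0.01, against 0.002 over all genes, the changes ran from -0.57 to 0.31, and the 95% intervals reached from -1.11 to 0.89. At an unadjusted p under 0.05 there were 8 of the 41 genes, named here because of that value, against 4475 of all 14205 genes. That is a smaller share than over all genes, so their number is no result about the 41 genes as a group. The chaperonin pair and both prohibitins were on the lower side of these 8. Hspd1 had the lowest p and was at 37.0, 40.7, 35.3 and 39.1 CPM in aged LT-HSC, against 42.7, 49.0, 53.6 and 39.7 CPM in young LT-HSC (log2 -0.28 ± 0.11, adjusted p = 0.074), with overlapping values. Phb was at 19.6, 25.2, 20.2 and 20.0 CPM in aged LT-HSC, against 26.7, 29.5, 28.7 and 29.1 CPM in young LT-HSC (log2 -0.42 ± 0.18, adjusted p = 0.11). Phb2 was at 65.4, 75.0, 71.6 and 68.8 CPM in aged LT-HSC, against 78.8, 91.4, 85.0 and 81.9 CPM in young LT-HSC (log2 -0.26 ± 0.12, adjusted p = 0.13). Neither prohibitin overlapped between the ages, while over all genes 9.62% were lower in aged LT-HSC without overlap. Dnm1l was higher in aged LT-HSC without overlap, as were 12.5% of all genes, at 92.3, 97.7, 105 and 94.3 CPM against 86.8, 88.1, 81.8 and 89.9 CPM in young LT-HSC (log2 0.17 ± 0.09, adjusted p = 0.2).

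The other genes of low unadjusted p in LT-HSC were Hspe1 (-0.42, adjusted p = 0.1), Polg2 (-0.57, 0.13), Polg (-0.17, 0.13), Mfn1 (0.30, 0.093) and Oma1 (0.31, 0.13). Some passed with 1 library left out, each time 1 gene of the 41. These were Polg without aged LT-HSC library 1 (-0.24, adjusted p = 0.037), Polg2 without aged LT-HSC library 2 (-0.84, 0.031), Mfn1 without young LT-HSC library 1 (0.41, 0.023) and Hspd1 without young LT-HSC library 4 (-0.36, 0.033). Young LT-HSC library 1 is the library with Mpo at 682 CPM. The 45S ribosomal RNA gene took 5.64% to 6.95% of counts in aged and 6.85% to 10.9% in young LT-HSC. T and NK cell markers were higher in aged LT-HSC (0.00811% to 0.0124%, against 0.00233% to 0.00303%), with Cd3e, Cd3g and Ncr1 at 0 at both ages. Monocyte and macrophage markers were lower (0.00258% to 0.00368%, against 0.00437% to 0.00667%), with Ccr2 at 0 at both ages. The part of all these in the values above was not tested.

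In ST-HSC 0 of the 41 genes passed with edgeR, where 5.79% of all genes were called (3.58% higher and 2.21% lower), and DESeq2 called 1, Vdac2. The median change was -0.03, against 0.01 over all genes, with changes from -0.42 to 0.33 and 95% intervals reaching from -1.11 to 1.02. The 3 genes of unadjusted p under 0.05 were Vdac2, Prdx3 and Twnk, 3 of 41 against 2801 of all 14205 genes. Vdac2 was at 95.8, 110, 86.1 and 99.5 CPM in aged ST-HSC, against 76.6, 77.1, 67.0 and 92.6 CPM in young ST-HSC (log2 0.32 ± 0.10, adjusted p = 0.065, and 0.038 by DESeq2). Prdx3 was at 144, 137, 111 and 159 CPM in aged ST-HSC, against 102, 119, 100 and 122 CPM in young ST-HSC (log2 0.31 ± 0.11, adjusted p = 0.085). Values of both genes overlapped between the ages. Twnk, the mitochondrial DNA helicase, was at 57.0, 56.5, 54.1 and 52.1 CPM in aged ST-HSC, against 61.4, 71.5, 63.1 and 73.2 CPM in young ST-HSC, lower without overlap, as were 4.98% of all genes (-0.29 ± 0.10, adjusted p = 0.099). No gene of the 41 was higher without overlap, against 5.94% of all genes. Vdac2 passed without young ST-HSC library 4 (0.41, adjusted p = 0.025), and Vdac2 and Prdx3 both passed without aged ST-HSC library 3 (0.39, 0.033, and 0.42, 0.019). Megakaryocyte markers were higher in aged ST-HSC (0.0116% to 0.014% of counts, against 0.00695% to 0.00859% in young ST-HSC). Mast cell, basophil and eosinophil markers were higher too (0.000954% to 0.00216%, against 0.000211% to 0.000711%). The part of these markers in the values above was not tested.

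In MPP 0 of the 41 genes passed with edgeR, where 9.79% of all genes were called (5.53% higher and 4.27% lower), and DESeq2 called 1, Atf5. The median change was 0.07, against -0.004 over all genes, with changes from -0.69 to 0.95 and 95% intervals reaching from -1.65 to 1.63. Atf5 was at 5.92, 8.98, 6.18 and 10.7 CPM in aged MPP, against 4.36, 4.75, 3.04 and 4.22 CPM in young MPP, higher without overlap, as were 8.83% of all genes (0.95 ± 0.33, adjusted p = 0.067, and 0.042 by DESeq2). Nrf1 was at 144, 160, 146 and 121 CPM in aged MPP, against 176, 171, 182 and 147 CPM in young MPP, with overlap (-0.25 ± 0.09, adjusted p = 0.098). Prdx5 (0.43), Fis1 (0.31) and Vdac2 (0.21) also had an unadjusted p under 0.05, 5 of the 41 genes in all, against 3380 of all 14205 genes. Prdx5 passed without aged MPP library 2 (0.56, adjusted p = 0.026). Twnk and Clpx were lower in aged MPP without overlap, as were 7.64% of all genes, but with DESeq2's size factors in place of TMM both overlapped. B and plasma cell markers moved with age in MPP (0.182% to 0.875% of counts in aged and 0.00564% to 0.0359% in young MPP). They were highest in aged MPP library 4. That library was the highest aged MPP library for some of the 41 genes, among them Atf5, Prdx5, Phb2 and Vdac1. It was the lowest for others, among them Nrf1, Htra2, Sod2, Dnm1l, Polg and Ppargc1a. Monocyte and macrophage markers were also higher in aged MPP (0.0147% to 0.0493%, against 0.00428% to 0.00899% in young MPP). So were megakaryocyte markers (0.00818% to 0.0123%, against 0.00599% to 0.00668%). The part of all these markers in the values above was not tested.

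**Figure D4:**
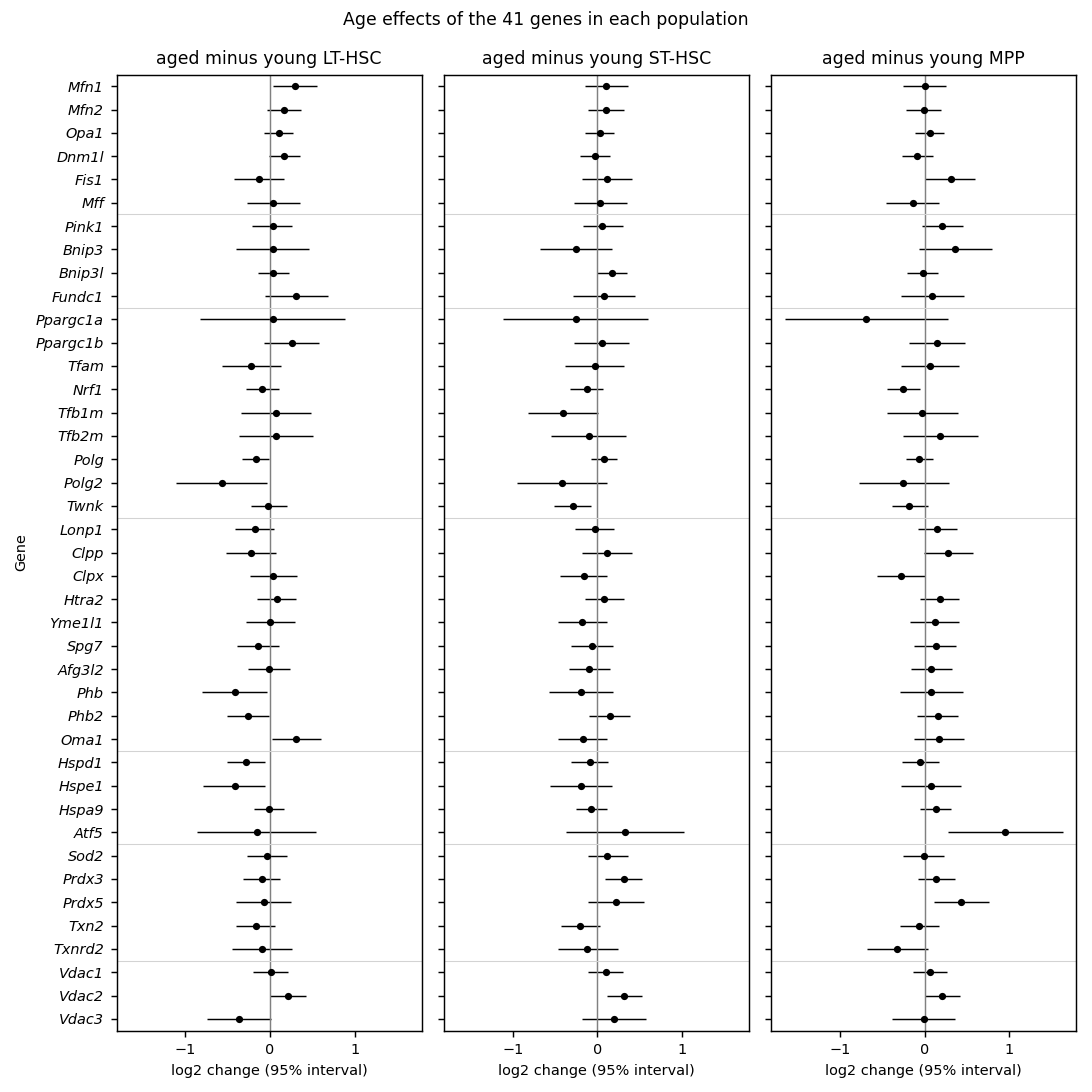
Points are log2 changes, aged minus young, of the 41 genes in LT-HSC, ST-HSC and MPP, with bars for the 95% interval. The changes run from -0.57 to 0.31 in LT-HSC, -0.42 to 0.33 in ST-HSC and -0.69 to 0.95 in MPP, and none passed the adjusted threshold with all libraries.

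The age effects in LT-HSC and ST-HSC did not differ for any of the 41 genes at the threshold with edgeR or DESeq2 (edgeR called 4.05% of all genes, 1.65% higher and 2.39% lower). Against 2567 of all 14205 genes, 5 of the 41 had an unadjusted p under 0.05. They were Prdx3 (-0.42), Phb2 (-0.41), Oma1 (0.48), Polg (-0.25) and Vdac3 (-0.56), given as the effect in LT-HSC minus that in ST-HSC. Without aged ST-HSC library 3, Prdx3 (-0.54, adjusted p = 0.027) and Phb2 (-0.54, 0.045) passed. That library had the lowest level of both genes among the aged ST-HSC libraries.

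Genes of the same processes outside the 41 were counted in 8 lists, 140 genes tested in all. With age in LT-HSC 8 were higher and 14 lower, 15.7% of the 140, below the 18.9% of all genes called there (9.98% higher and 8.87% lower), so the counts are no result about these genes as a group. With aged ST-HSC libraries 2 and 3 and young LT-HSC library 1 all removed, 36 were called in place of 22. In mitophagy 4 of 17 genes were higher (23.5%) and 1 lower. Gabarapl1, an adaptor of the autophagosome membrane, was at 179, 197, 177 and 184 CPM in aged LT-HSC, against 150, 126, 143 and 146 CPM in young LT-HSC (log2 0.38 ± 0.09, adjusted p = 0.0034). Tax1bp1, a receptor that links ubiquitin-tagged cargo to autophagosomes, was at 253, 253, 284 and 288 CPM in aged LT-HSC, against 222, 191, 182 and 173 CPM in young LT-HSC (log2 0.49 ± 0.08, adjusted p = 7.8e-05). Neither overlapped between the ages. Bcl2l13, an outer membrane mitophagy receptor, fell (-0.54). Protein import had 0 higher and 3 lower of 26 (11.5%, near the 8.87% of all genes called lower). The 3 include Timm50, a receptor of the inner membrane import channel, at 12.9, 15.8, 14.7 and 12.2 CPM in aged LT-HSC, against 21.6, 26.1, 27.5 and 23.7 CPM in young LT-HSC, with no overlap (-0.83 ± 0.14, adjusted p = 9.4e-05). The import subunits Tomm22 (-0.47) and Timm17b (-0.52) also fell, but Tomm22 was not called without aged LT-HSC library 2 or 4 or young LT-HSC library 3 or 4 (highest adjusted p over all alternatives 0.093), nor Timm17b without aged LT-HSC library 1, 2 or 3 or young LT-HSC library 2 or 3 (0.22).

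Of 20 other antioxidant genes 2 were higher and 4 lower in aged LT-HSC, where 9.98% of all genes were called higher and 8.87% lower. Nnt, the transhydrogenase that supplies the mitochondrial thioredoxin and glutathione systems with NADPH, was lower with age in all 3 populations. It was at 93.8, 78.1, 78.8 and 84.5 CPM in aged LT-HSC, against 138, 166, 153 and 162 CPM in young LT-HSC (log2 -0.88 ± 0.08, adjusted p = 2.9e-08). In ST-HSC it averaged 88.7 ± 7.91 CPM in aged and 158 ± 10.2 CPM in young cells (-0.83, adjusted p = 1.8e-06), and in MPP 92.1 ± 7.95 CPM in aged and 181 ± 5.47 CPM in young cells (-0.97, 3e-08; SD, n = 4 each). Nnt carries a deletion in the substrain C57BL/6J, and the labels give C57BL/6 for both ages with no substrain, so the substrain's part was not tested. Catalase, Cat, fell (-0.51 ± 0.11, adjusted p = 0.0018) and Txnip, an inhibitor of thioredoxin, rose (0.63 ± 0.16, adjusted p = 0.009) in aged LT-HSC. Ucp2, an inner membrane carrier, rose in aged ST-HSC (0.52 ± 0.09, adjusted p = 4e-04) and, except without aged MPP library 4 (where adjusted p was 0.05), in aged MPP (0.33), and the age effect in LT-HSC was lower than that in ST-HSC (-0.68, adjusted p = 0.0011) and in MPP (-0.50, 0.0092).

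Among 15 genes of the integrated and mitochondrial stress response, 1 was higher and 3 lower in aged LT-HSC, against 9.98% and 8.87% of all genes. The serine synthesis enzymes Phgdh (-0.64 ± 0.10, adjusted p = 2.2e-05) and Psat1 (-0.65 ± 0.12, adjusted p = 0.00047) were 2 of the 3 lower genes. The third, the mitochondrial one-carbon enzyme Mthfd2, was at 1.45, 0.610, 0.383 and 0.854 CPM in aged LT-HSC, against 5.69, 4.47, 2.92 and 11.0 CPM in young LT-HSC (at an adjusted p = 5.2e-05). Phgdh averaged 51.8 ± 2.20 CPM in aged LT-HSC, against 80.9 ± 7.70 CPM in young LT-HSC (SD, n = 4 each), with no overlap. The age effects in LT-HSC were lower than those in MPP for Phgdh (-0.87, adjusted p = 1e-04), Psat1 (-0.87, 0.0014), Timm50 (-0.68, 0.023) and the glutathione peroxidase Gpx1 (-0.88, 0.015). In ST-HSC 4 of the 140 genes were higher and 3 lower with age (5%, against 5.79% of all genes), and in MPP 5 were higher and 3 lower (5.71%, against 9.79% of all genes), neither above the share of all genes. Tax1bp1 rose in both (0.40 and 0.32), as did Ppp1r15a, which restores translation after stress (0.85 and 0.90). The call of Ppp1r15a in ST-HSC was lost without aged ST-HSC library 2 or young ST-HSC library 1 or 4 (highest adjusted p over all alternatives 0.082). Chac1, a glutathione-degrading enzyme of the stress response, was at 5.63, 13.2, 2.06 and 7.45 CPM in aged MPP, against 0, 0, 0 and 0.241 CPM in young MPP (adjusted p = 0.0032).

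Between aged LT-HSC and aged MPP, 25 of the 140 genes were higher and 55 lower, 57.1% in all and near the 56.8% of all genes called (28.3% higher and 28.5% lower). Between young LT-HSC and young MPP 20 were higher and 30 lower, 35.7% against 37.2% of all genes. Protein import was lower in aged LT-HSC for 14 of 26 genes (53.8%) and higher for 1. Tomm40, the pore of the outer membrane translocase, was at 27.9, 27.4, 28.6 and 28.7 CPM in aged LT-HSC, against 54.5, 47.9, 53.7 and 62.6 CPM in aged MPP (-0.96 ± 0.15, adjusted p = 7.9e-06), with no overlap. Timm50 differed by -1.19 and Tomm22 by -1.07. In young mice 5 of the 26 import genes were lower (19.2%, against 18.3% of all genes) and 0 higher, with Tomm40 at -0.61 and Timm50 at -0.51. Processing peptidases and other chaperones were lower in aged LT-HSC for 8 of 11 genes and cristae genes for 5 of 10, with none higher in either list. Trap1, the mitochondrial HSP90, had the lowest p of the first list (-0.56 ± 0.06, adjusted p = 3.8e-08), and Dnajc11 (-0.54) and Samm50 (-0.58) had the lowest of the second.

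Other mitophagy genes were higher in aged LT-HSC than in aged MPP for 7 of 17 and lower for 5, and in young mice for 6 and 2. Over all genes 28.3% were higher and 28.5% lower in the aged comparison, and 18.9% and 18.3% in the young one. Gabarapl1 was at 179, 197, 177 and 184 CPM in aged LT-HSC, against 74.6, 73.6, 71.6 and 64.8 CPM in aged MPP (1.37 ± 0.09, adjusted p = 1.5e-12), and its young difference was 1.01. Park2, which encodes the ubiquitin ligase parkin that works with Pink1, was at 20.9, 19.5, 26.8 and 23.5 CPM in aged LT-HSC, against 2.76, 3.64, 2.62 and 5.49 CPM in aged MPP (2.64 ± 0.27, adjusted p = 9.8e-09), and its young difference was 1.87. Both genes were above MPP in every aged LT-HSC library. Nipsnap2, a mitochondrial signal for mitophagy, differed by 1.01 in aged and 1.06 in young mice. Among biogenesis genes the AMP-activated kinase subunit Prkaa2 was higher in LT-HSC than in MPP, by 2.84 in aged and 1.86 in young mice, and Gabpb1, a subunit of the ETS factor GABP, was lower, at -0.55 in aged and -0.66 in young mice. The other lists gave 3 higher and 2 lower of 18 fission, fusion and shape factors, 6 and 6 of 23 biogenesis genes, 2 and 5 of 15 stress response genes and 6 and 10 of 20 antioxidant genes in the aged comparison. These counts are read against the same 28.3% higher and 28.5% lower over all genes. All these lists were written with earlier results of these data known.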

How the data were processed

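RNA of sorted cells was reverse transcribed and amplified into Nextera XT libraries, per the labels' protocols, a kit without strand marking and without molecular identifiers. The authors deposited raw read counts per gene symbol for 24 libraries. The submitters' processing notes name Trim Galore, HISAT2, featureCounts and mm10, and neither versions nor the annotation nor the strand setting is given in the sources used here. Of the 24421 rows, 27 carry dates in place of symbols (at most 0.192% of a library's counts), and they stayed in the tables.

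Total counts ran from 7307151 to 12946550 per library, and counting error limits low genes most. Genes passing filterByExpr, 14205 with 99.9% to 100% of counts, were fitted over all 24 libraries with edgeR 4.0.16 (R 4.3.3, limma 3.58.1): TMM scaling, 1 mean per group, 18 residual degrees of freedom, robust quasi-likelihood tests, two-sided, Benjamini-Hochberg adjusted, with a threshold of 0.05. The 12 comparisons were aged against young in each population, each pair of populations at each age, and the differences of age effects. Coordinates and exon lengths are from GENCODE M21 (GRCm38) and promoters from RefSeq GRCm38.p6. Alternatives were DESeq2 1.42.0, DESeq2's size factors, no count filter, a replicate block, fits to only the 2 groups compared, and leaving out each library. The code was tested on simulated data. The members and the lists of related genes were chosen with earlier results of these data known.

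Genes were named by a fixed rule: members of smallest p in each comparison, at most 8 between populations with values in every library, and at most 3 called genes of smallest p per related list. Other members are named where they were called, had an unadjusted p under 0.05 or did not overlap between groups, and these were chosen after their values were seen. The p-values measure the spread between libraries, part of which may be technical.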

Additional observations from a re-analysis of the deposited data

Results flagged for a closer look

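Each of the 41 genes was examined in each of the 6 groups of 4 libraries for a library far from the other 3, by Dixon's test at its 95% critical value. It marked 7 of 246 groups, 2.8%, where chance marks about 5%. In young LT-HSC, Mff was at 47.9 CPM in library 1, against 34.4 to 35.5 CPM in the other 3. In young ST-HSC, Nrf1 was high in library 4, at 153 CPM against 123 to 125 CPM, and Tfb1m was low in library 2, at 11.9 CPM against 16.1 to 16.9 CPM. In aged LT-HSC, Lonp1 was high in library 3, at 93.6 CPM against 85.9 to 86.9 CPM, and Phb in library 2, at 25.2 CPM against 19.6 to 20.2 CPM. In aged MPP both marked genes were high in library 4, with Phb2 at 156 CPM against 123 to 128 CPM and Vdac1 at 198 CPM against 164 to 169 CPM. That library also had the highest share of B and plasma cell markers, 0.875% of counts.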

How the results depend on the processing

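Over the alternatives, the 70 results of the 41 genes that were called in the main fit, all between populations, gave 980 values. Of these values 0 changed sign and 100 lost their call, and 47 of the 70 results never lost it. Changes with age, none of them called, were not among the 70. In the comparisons of ages, where 0 of 41 genes were called, DESeq2 called 1 in ST-HSC and 1 in MPP, and a fit to only the 2 groups compared called 1 in LT-HSC (Phb, -0.43, adjusted p = 0.044) and 1 in MPP (Atf5, 0.96, 0.047). That fit called 3 in place of 5 genes between aged LT-HSC and aged ST-HSC. Leaving out each replicate in turn gave 0 to 1 calls with age in LT-HSC, 0 to 2 in ST-HSC and 0 to 1 in MPP. It gave 0 to 2 calls for the age effect in LT-HSC minus that in ST-HSC and 0 to 1 for LT-HSC minus MPP. Between populations it gave 3 to 7 (aged LT-HSC minus ST-HSC), 22 to 27 (aged LT-HSC minus MPP), 13 to 15 (aged ST-HSC minus MPP), 0 (young LT-HSC minus ST-HSC), 11 to 12 (young LT-HSC minus MPP) and 8 to 12 (young ST-HSC minus MPP). With 3 libraries removed at once (aged ST-HSC 2 and 3, young LT-HSC 1), a choice made with earlier results known, the calls were 1 with age in LT-HSC (Mfn1, 0.41, adjusted p = 0.026), 1 in ST-HSC (Prdx3, 0.45, 0.036), 2 for the age effect in LT-HSC minus that in ST-HSC, 1 for LT-HSC minus MPP (Lonp1, -0.36, 0.048) and 8 in place of 17 between aged ST-HSC and aged MPP. The cause of these changes was not tested.

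No label says whether libraries of 1 number within an age came from the same mouse. The correlation of their deviations from the group means ran from -0.041 to 0.13 (median 0.036), with 4 of 24 pairs over 0.1. For libraries of different numbers within an age it ran from -0.21 to 0.161 (median -0.012), with 4 of 72 pairs over 0.1. With 4 mice per age and 4 libraries per group taken as separate mice, the populations of an age share mice. These values cannot decide which libraries share one. The main fit took all libraries as independent, so its comparisons between populations left that pairing out. With the number as a replicate block, 1 gene was called with age in LT-HSC (Polg2, -0.65, adjusted p = 0.015), and no other count of calls moved past 1.5 times. In the comparisons of ages the block joined aged and young libraries of 1 number, which are different mice, so the Polg2 call rests on no real pairing. Between populations the block joined libraries of 1 number within an age. Between aged LT-HSC and aged MPP the block called Pink1 (0.25, 0.016) and Fundc1 (0.41, 0.042), which did not pass without it, and did not call Txnrd2 (0.39, 0.08), and between aged ST-HSC and aged MPP it did not call Nrf1 (-0.24, 0.072). Among related genes, 169 results gave 2464 values, with 211 calls lost and 0 reversed. DESeq2 called 13 related genes with age in MPP in place of 8, 11 in place of 6 for the age effect in LT-HSC minus ST-HSC and 14 in place of 9 for LT-HSC minus MPP. The 2-group fit called 4 in place of 7 with age in ST-HSC, and leaving out aged ST-HSC library 3 gave 11 for the age effect in LT-HSC minus ST-HSC. Ppargc1a and Atf5 had the fewest counts per kb, so depth limits them most.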

Other observations

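Ratios of CPM between partner genes were computed in each library and are given as values with no test. Hspe1 over Hspd1, which form one chaperonin, was 0.372 ± 0.0851 in aged and 0.408 ± 0.0357 in young LT-HSC, 0.380 ± 0.0664 in aged and 0.416 ± 0.0471 in young ST-HSC, and 0.513 ± 0.06 in aged and 0.470 ± 0.0956 in young MPP (SD, n = 4 each). Phb over Phb2 was 0.302 ± 0.0238 in aged and 0.338 ± 0.0132 in young LT-HSC, 0.223 ± 0.0454 in aged and 0.284 ± 0.0423 in young ST-HSC, and 0.246 ± 0.011 in aged and 0.257 ± 0.0297 in young MPP. Vdac1 over Vdac2 was 1.52 ± 0.0998 in aged and 1.75 ± 0.149 in young LT-HSC, 1.36 ± 0.167 in aged and 1.60 ± 0.18 in young ST-HSC, and 1.61 ± 0.166 in aged and 1.79 ± 0.188 in young MPP. The mean of Vdac1 over Vdac2 was lower in the aged group of each population, while aged and young values overlapped in ST-HSC and MPP but not in LT-HSC.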
